A study of Mus musculus with 6 samples.

Results

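The splicing and RNA-binding regulators described here are 10 genes whose proteins control which exons are kept and how long mRNAs last. Most act in neurons, while *Ptbp1* acts mainly in progenitors and in cells other than neurons. The 10 genes were followed in primary mouse neurons whose *Kcna1* promoter had been targeted with CRISPR activation. The members are a list of names drawn up with earlier results of these data known, with no threshold on a measured value, and all 10 of 10 were found among the 50508 gene symbols listed and among the 19504 genes above 0 in at least 1 library. They fall into 4 families, which are the Rbfox genes (*Rbfox1*, *Rbfox2*, *Rbfox3*), the Nova genes (*Nova1*, *Nova2*), the neuronal Elavl genes (*Elavl2*, *Elavl3*, *Elavl4*) and the Ptbp genes (*Ptbp1*, *Ptbp2*). No member passed an adjusted p of 0.05 between the groups. *Nova2*, *Elavl4* and *Elavl3* were listed at lower values in every treated library than in any control library, and *Ptbp2* and *Rbfox1* at higher ones. These 5 of 10 are near the 42.7% of genes with a mean value of 20 or more whose groups did not overlap. With median-of-ratios scaling factors the groups of *Elavl3* overlapped.

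Both groups were cultures of mouse brain, from newborn C57Bl/6J pups by the paper's methods, transduced the day after plating with a lentivirus that carries a guide RNA and dCas9-VP160, a nuclease-dead Cas9 fused to a transcriptional activator. The sgLacZ group carried a control guide against the bacterial LacZ gene, the sgKcna1 group carried the guide sg19 against the *Kcna1* promoter, and each had 3 libraries. The activator was driven by the Ef1alpha promoter, which is not restricted to neurons. The paper gives more than one culture age for RNA, so the age of these cultures is left unstated. The labels name hippocampus and the paper's methods name cortex, and while the paper speaks of independent repetitions in general, nothing ties these 3 libraries of a group to separate cultures or litters, so that p-values measure the spread between these libraries. The QuantSeq 3′ method used for all libraries yields about a single read per transcript near its end. Its reads therefore stand for transcripts and not for transcript length, and isoforms that differ in internal exons were not resolved.

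RNA-binding proteins of these families decide which exons a neuron keeps and how long its mRNAs last. Rbfox proteins bind the word UGCAUG in introns and 3′ ends, Nova proteins bind clusters of YCAY, and neuronal Elavl proteins, also called HuB, HuC and HuD, bind U-rich stretches and often stabilise the transcript. Ptbp1 holds neuronal exons silent in progenitors and in cells other than neurons, and Ptbp2 takes its place as neurons differentiate. Elavl4 has also been described as a protein that binds *Kcna1* mRNA.

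The deposited value is a whole number per gene that sums to between 999047 and 999717 in a library, and was taken to be a rounded per-million value. The reads behind a library are unknown, and no interval that needs them is given. *Kcna1*, the targeted gene, was listed at 16 in all 3 sgLacZ libraries and at 68, 47 and 65 in the sgKcna1 libraries (log2 fold change 1.83, adjusted p = 0.035 from limma). One library stood apart from its label. Over the 6046 genes whose mean value was 20 or more, the log2 values of sgLacZ replicate 3 correlated on average at 0.967 with the sgKcna1 libraries and at 0.953 with the other sgLacZ libraries (Pearson's r across genes, which are not independent replicates). All other libraries correlated more closely with their own group. The members whose groups did not overlap are therefore also given without sgLacZ replicate 3. Gm42418 alone held from 15.3% to 20.2% of a library.

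Every gene above 0 was tested with limma on log2(value + 1), with Benjamini-Hochberg adjustment over the 19504 genes. By this test 226 genes, or 1.16%, had an adjusted p under 0.05 (68 higher and 158 lower in sgKcna1), against 0 of the 10 members. At an unadjusted p under 0.05 there were 3 members (*Nova2* and *Elavl4* lower, *Ptbp2* higher), where 23.2% of all genes reached that level. The groups did not overlap for 5 of 10 members, against 22.2% of all genes tested and 42.7% of the 6046 genes whose mean was 20 or more, so that the share among the members is near that of genes of like abundance. The median log2 fold change of the members was 0.04, and that of all genes -0.02. That count was 6 with median-of-ratios factors, where *Rbfox3* and *Elavl2* joined and *Elavl3* dropped out, and 7 with upper-quartile factors, where *Elavl3* stayed. Of the 6046 genes with a mean of 20 or more, 46% and 45.2% did not overlap with these factors. With median-of-ratios factors, 8.82% of all genes passed (963 higher, 758 lower) and again 0 members. The intervals below show what size of change each member's data still allow.

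**Figure D1:**
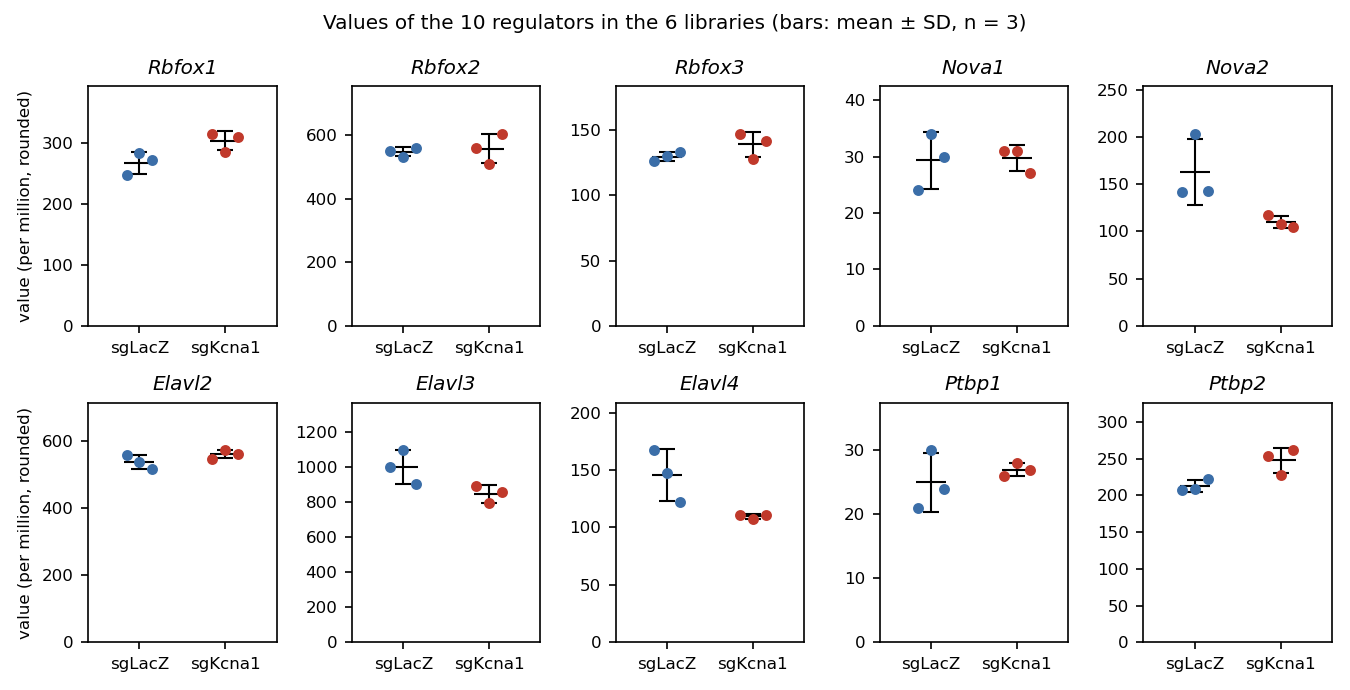
Deposited value of each regulator (vertical axis, rounded per-million value, starting at 0) in the 3 sgLacZ libraries (blue) and the 3 sgKcna1 libraries (red), with the mean and SD of each group as black bars. *Nova2*, *Elavl3* and *Elavl4* lie lower in all red points than in any blue point, *Rbfox1* and *Ptbp2* lie higher, and the other 5 overlap.

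The levels of the members spanned from 26 for *Ptbp1* to 925 for *Elavl3* as means over the 6 libraries. *Elavl3* stood above all others in both groups. *Rbfox2* (552) and *Elavl2* (549) followed and overlapped in both groups. *Rbfox1* (286) and *Ptbp2* (230) came next, each apart from its neighbours in the order. *Nova2* (136), *Rbfox3* (134) and *Elavl4* (128) lay close together. Of these, *Nova2* lay above *Rbfox3* in sgLacZ and below it in sgKcna1, without overlap in either group, and *Rbfox3* and *Elavl4* overlapped in sgLacZ but not in sgKcna1. *Nova1* (29.5) and *Ptbp1* (26) were lowest and overlapped in both groups. Since the 3′ kit yields about a single read per transcript, these values were compared without division by length, but the efficiency of priming can differ between genes. Whether the deposited values had already been divided by length is not known, and the order of levels would depend on it.

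Of the Nova genes, *Nova2* was the one listed lower in sgKcna1. Nova2 is the Nova protein of forebrain neurons, and its gene lies on chr7:18925888-18965319 of mm10, the build named in the submitters' processing notes. It was listed at 142, 203 and 143 in sgLacZ and at 117, 108 and 105 in sgKcna1. The sgLacZ libraries ranged more widely than the sgKcna1 libraries, with replicate 2 far above the others, and the lowest of them still exceeded the highest sgKcna1 library. The means were 163 ± 34.9 and 110 ± 6.25 (SD, n = 3 each), 0.676 times the control. The log2 fold change was -0.54 (standard error 0.15, 95% interval -0.90 to -0.18), with an adjusted p of 0.092 from limma. Without sgLacZ replicate 2 the log2 fold change was -0.37 (adjusted p = 0.17), and without sgLacZ replicate 3 it was -0.62 (adjusted p = 0.083). *Nova1* (chr12:46697895-46819480), whose protein is better known from hindbrain and spinal cord, was listed at 24, 34 and 30 in sgLacZ and at 31, 31 and 27 in sgKcna1. Its groups overlapped, and its log2 fold change was 0.03 (95% interval -0.35 to 0.40, adjusted p = 0.95 from limma).

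The ratio of the listed values of *Nova2* and *Nova1* within a library does not depend on how the library was scaled, apart from rounding. It lay between 4.77 and 5.97 in sgLacZ and between 3.48 and 3.89 in sgKcna1, without overlap. As log2 ratios of (value + 1) the means were 2.42 ± 0.18 in sgLacZ and 1.86 ± 0.08 in sgKcna1 (SD, n = 3), a difference of -0.57 that was described and not tested. *Nova2* made up 84.6% ± 1.70 of the summed Nova values in sgLacZ and 78.8% ± 0.96 in sgKcna1 (SD, n = 3).

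Promoters were read because dCas9-VP160 acts on promoters. They are shown only for the 3 members with the lower values, although dCas9-VP160 is an activator. The sequences are the 250 bases before a transcript start in RefSeq (GRCm38.p6, which is mm10), written 5′ to 3′ in the direction of the gene. Capitals mark the 20 bases that match sg19 best next to an NGG PAM, with that PAM, on either strand. In all 3 windows this site lies on the strand opposite to the gene, so that the PAM reads as CCN at the left end of the capitals. Where a gene has several starts, the one with the closest match is shown. The *Nova2* window lies at chr7:18925638-18925887 on the plus strand, *Elavl3* at chr9:22052024-22052273 and *Elavl4* at chr4:110351912-110352161, both on the minus strand.

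Nova2: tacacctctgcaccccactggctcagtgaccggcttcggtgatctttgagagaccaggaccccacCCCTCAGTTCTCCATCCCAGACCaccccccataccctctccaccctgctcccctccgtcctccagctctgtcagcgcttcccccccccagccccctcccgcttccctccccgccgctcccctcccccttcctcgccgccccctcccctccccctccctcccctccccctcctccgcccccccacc

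Elavl3: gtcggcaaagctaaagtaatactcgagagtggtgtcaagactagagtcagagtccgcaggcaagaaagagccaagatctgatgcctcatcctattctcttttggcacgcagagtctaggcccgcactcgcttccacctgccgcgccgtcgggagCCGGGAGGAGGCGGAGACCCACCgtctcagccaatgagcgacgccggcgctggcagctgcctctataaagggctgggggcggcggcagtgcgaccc

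Elavl4: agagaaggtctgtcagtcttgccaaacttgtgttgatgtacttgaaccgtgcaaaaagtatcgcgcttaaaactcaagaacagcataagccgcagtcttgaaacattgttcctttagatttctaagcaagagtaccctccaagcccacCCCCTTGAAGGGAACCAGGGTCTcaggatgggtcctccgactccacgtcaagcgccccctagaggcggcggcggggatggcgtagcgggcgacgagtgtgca

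The best match had 12 mismatches of 20 for *Nova2*, 9 for *Elavl3* and 11 for *Elavl4*. It had 11 each for *Rbfox1* and *Ptbp2*, the members with the higher values, whose windows are not shown. Windows were found for 9 of the 10 members, all but *Rbfox2*, and their best matches had from 9 to 12 mismatches, with a median of 11. The median over the 27023 genes with a site next to NGG was also 11, and 14.1% of genes had 9 mismatches or fewer. The *Nova2* window was rich in C and G (71.2%, against a median of 52.4% over 32851 windows) but held 10 CG pairs, while *Elavl3* (61.6%) held 20 and *Elavl4* (53.6%) held 14, against a median of 6. The E-box word CAGCTG, which reads the same on both strands, was in the windows of *Elavl3* and *Nova1* and in 13% of all windows. These are matches of letters and show no binding.

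The neuronal Elavl genes differed among themselves. *Elavl4* (HuD, chr4:110203737-110351939), known for stabilising mRNAs of growing axons, was listed at 167, 147 and 122 in sgLacZ and at 111, 107 and 111 in sgKcna1. Its sgKcna1 libraries were close together and all below the lowest control, sgLacZ replicate 3. The means were 145 ± 22.5 and 110 ± 2.31 (SD, n = 3), and the log2 fold change was -0.39 (standard error 0.13, 95% interval -0.69 to -0.09, adjusted p = 0.12 from limma). Without sgLacZ replicate 3 it was -0.51 with an adjusted p of 0.029, the only left-out library under which *Elavl4* passed, while over all alternatives its adjusted p ran from 0.029 to 0.31.

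*Elavl3* (HuC, chr9:22015005-22052146), a marker of newly formed neurons, was listed at 1002, 1097 and 904 in sgLacZ and at 893, 796 and 857 in sgKcna1. The gap between the groups was narrow, from 904 to 893. The log2 fold change was -0.24 (95% interval -0.47 to 0.00, adjusted p = 0.22 from limma). Without sgLacZ replicate 3 it was -0.31 (adjusted p = 0.064), and with median-of-ratios factors it was -0.15 (adjusted p = 0.50) and the groups overlapped. *Elavl2* (HuB, chr4:91211533-91400108) was listed at 559, 537 and 517 and at 548, 572 and 562, with overlapping groups and a log2 fold change of 0.06 (95% interval -0.12 to 0.24, adjusted p = 0.60 from limma). With median-of-ratios factors this was 0.15 (adjusted p = 0.44) and the groups did not overlap.

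Within the family, the ratio of *Elavl2* to *Elavl4* ran from 3.35 to 4.24 in sgLacZ and from 4.94 to 5.35 in sgKcna1 (listed values), without overlap. The log2 difference on (value + 1) was 0.45, and stayed between 0.38 and 0.54 whichever library was left out. The ratio of *Elavl3* to *Elavl4* overlapped between the groups. *Elavl2* made up between 30.2% and 33.5% of the summed neuronal Elavl values in sgLacZ and between 35.3% and 38.8% in sgKcna1. *Elavl3* made up 59.4% ± 1.93 and 55.8% ± 1.79, and *Elavl4* made up 8.61% ± 0.93 and 7.22% ± 0.06 (SD, n = 3 each). The summed values were 1728, 1781 and 1543 in sgLacZ and 1552, 1475 and 1530 in sgKcna1. These sums overlapped, with sgLacZ replicate 3 the only control below the highest sgKcna1 library.

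**Figure D2:**
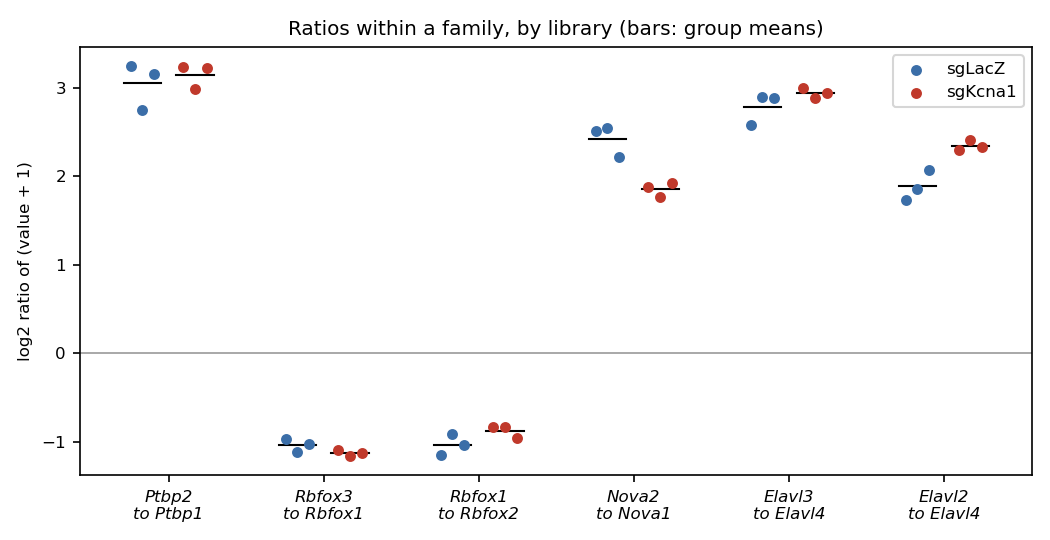
Log2 ratio of (value + 1) between pairs of genes of the same family (vertical axis) for each sgLacZ (blue) and sgKcna1 (red) library, with group means as black bars. *Nova2* to *Nova1* lies lower and *Elavl2* to *Elavl4* higher in all red points, while the other 4 ratios overlap.

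Of the Ptbp genes, *Ptbp2* (nPTB, chr3:119718741-119784647), the form that predominates in young neurons, was listed at 207, 208 and 222 in sgLacZ and at 254, 228 and 261 in sgKcna1. All sgKcna1 libraries exceeded all controls, by as little as 228 against 222. The log2 fold change was 0.22 (standard error 0.09, 95% interval 0.01 to 0.43, adjusted p = 0.20 from limma). Without sgLacZ replicate 3 it was 0.25 (adjusted p = 0.11). It was 0.31 with median-of-ratios factors (adjusted p = 0.0996), the lowest adjusted p that *Ptbp2* reached, with the highest at 0.74.

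*Ptbp1* (chr10:79854432-79864435) was listed at only 21, 30 and 24 in sgLacZ and at 26, 28 and 27 in sgKcna1. These groups overlapped, with a log2 fold change of 0.12 (95% interval -0.25 to 0.49, adjusted p = 0.61 from limma). Its value is uncertain, because its annotated span overlaps that of *Plppr3*, a gene listed at a mean of 311, and although the paper's methods state stranded reads, the sources used here do not say whether the counting used the strand. The listed value of *Ptbp2* was 6.93 to 9.86 times that of *Ptbp1* in sgLacZ and 8.14 to 9.77 times in sgKcna1. This ratio overlapped between the groups, and the sign of its log2 difference on (value + 1) (0.10) turned without sgLacZ replicate 2 (-0.05).

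*Rbfox1* (chr16:5884793-7412480), linked to epilepsy and autism in patients, was listed at 247, 283 and 272 in sgLacZ and at 315, 286 and 310 in sgKcna1. The groups were parted by 3 units, 283 against 286, and the log2 fold change was 0.18 (standard error 0.09, 95% interval -0.03 to 0.40, adjusted p = 0.27 from limma). *Rbfox2* (chr15:77078990-77308434), also made outside neurons, was listed at 549, 532 and 560 and at 559, 510 and 603, with a log2 fold change of 0.02 (95% interval -0.19 to 0.24). *Rbfox3* (chr11:118489760-118911597), which encodes the NeuN antigen of mature neurons, was listed at 126, 130 and 133 and at 147, 128 and 142. Its groups overlapped, with a log2 fold change of 0.10 (95% interval -0.12 to 0.31). Without sgLacZ replicate 3 the log2 fold change of *Rbfox1* was 0.20 (adjusted p = 0.22). With median-of-ratios factors it was 0.27 for *Rbfox1*, 0.11 for *Rbfox2* and 0.19 for *Rbfox3*, whose groups then did not overlap, and the adjusted p stayed at 0.15 or above for all 3 genes. As reported, the adjusted p was 0.89 for *Rbfox2* and 0.51 for *Rbfox3* (limma).

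*Rbfox2* made up 58.0% ± 1.63 of the summed Rbfox values in sgLacZ and 55.7% ± 1.28 in sgKcna1, *Rbfox1* 28.3% ± 1.58 and 30.4% ± 0.88, and *Rbfox3* 13.7% ± 0.06 and 13.9% ± 0.47 (SD, n = 3). The ratios of *Rbfox1* to *Rbfox2* and of *Rbfox3* to *Rbfox1* overlapped between the groups. For *Rbfox1* to *Rbfox2* the log2 difference was 0.16.

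**Figure D3:**
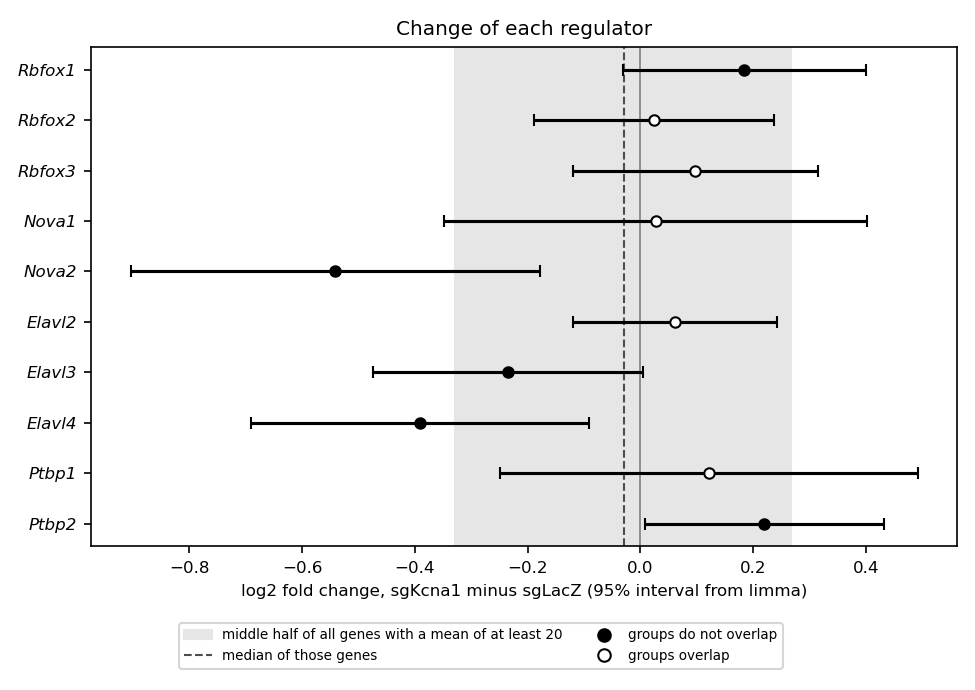
Log2 fold change of each regulator, sgKcna1 minus sgLacZ (horizontal axis), with the 95% interval from limma as bars. Filled points mark genes whose groups do not overlap, the grey band spans the quartiles of the 6046 genes with a mean of at least 20 (-0.33 to 0.27), and *Nova2* (-0.54) and *Elavl4* (-0.39) are the only members outside it.

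Other RNA-binding protein genes were read from 4 lists. hnRNP proteins coat nascent transcripts and often silence exons. Of the 24 hnRNP genes, 3 passed and were lower in sgKcna1, 0 passed and were higher, and 21 did not pass. *Hnrnpa2b1*, a splicing and mRNA transport factor, was listed at 202, 188 and 151 in sgLacZ and at 82, 89 and 72 in sgKcna1 (log2 fold change -1.14, adjusted p = 0.049 from limma). *Hnrnpl* was listed at 313, 350 and 243 and at 161, 129 and 157, and *Hnrnpu* at 575, 539 and 435 and at 320, 287 and 299, both with an adjusted p of 0.0496 from limma. In 15 of 24 hnRNP genes all sgKcna1 libraries lay below all controls, and in 0 above. Groups did not overlap in either direction for 22.2% of all genes tested and 42.7% of those with a mean of at least 20. The hnRNP and SR lists also hold genes below that mean. The median log2 fold change was -0.39, against -0.02 for all genes tested.

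SR proteins mostly favour the inclusion of exons. Of the 11 SR protein genes, *Srsf1* passed, listed at 215, 203 and 169 in sgLacZ and at 113, 104 and 82 in sgKcna1 (log2 fold change -0.97, adjusted p = 0.0496 from limma), and 10 did not pass. In 9 of 11 the sgKcna1 libraries lay below all controls and in 1 above, against the same 22.2% and 42.7% in either direction, with a median of -0.43. Of 34 other splicing regulators, 3 were at 0 in all libraries (*Raver1*, *Esrp1* and *Esrp2*). Of the 31 above 0, *Qk*, a regulator made mainly in glia, passed at 159, 162 and 135 against 91, 91 and 99 (log2 fold change -0.69, adjusted p = 0.0496 from limma). The other 30 did not pass, and the median of this list was -0.06. Of 24 cytoplasmic mRNA-binding regulators 0 passed in limma, while 10 were lower and 1 higher at an unadjusted p under 0.05. Over all genes tested 23.2% reached that level, and the median of this list was -0.25.

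The calls in these lists rested on the set of libraries. All 5 were lost when any single library other than sgLacZ replicate 3 was left out, as were all 226 calls over the whole table. Without sgLacZ replicate 3 the lists held 35 calls, where 14.2% of all genes tested passed, against 1.16% as reported. The medians kept their sign with median-of-ratios factors for hnRNP genes (-0.30), SR protein genes (-0.34) and cytoplasmic regulators (-0.16) and turned for the other splicing regulators (0.03). With these factors 1 hnRNP gene passed higher and 7 lower, 1 SR protein gene higher and 2 lower, 3 other splicing regulators higher and 5 lower, and 0 cytoplasmic regulators higher and 3 lower. Under the same factors 8.82% of all genes passed.

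**Figure D4:**
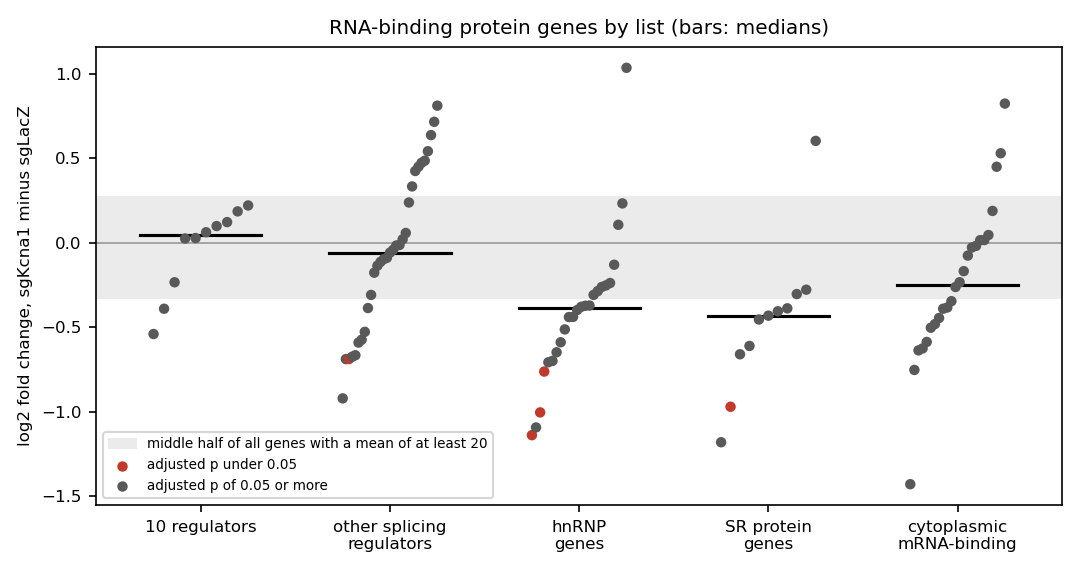
Log2 fold change, sgKcna1 minus sgLacZ (vertical axis), of each gene in 5 lists, with list medians as black bars, genes past an adjusted p of 0.05 in red and the quartiles of the 6046 genes with a mean of at least 20 as the grey band. The medians are 0.04 for the 10 regulators, -0.06 for other splicing regulators, -0.39 for hnRNP genes, -0.43 for SR protein genes and -0.25 for cytoplasmic mRNA-binding regulators.

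Transcripts described as targets of the 4 families were read at the level of the whole gene, and 0 of 7 passed in limma (3 higher and 1 lower at an unadjusted p under 0.05). That level was reached by 23.2% of all genes tested. *Dlg4*, which encodes PSD-95 and loses mRNA to decay when Ptbp proteins skip an exon, was listed at 338, 374 and 276 in sgLacZ and at 198, 217 and 227 in sgKcna1 (log2 fold change -0.61, adjusted p = 0.056). *Gabbr1*, a GABA-B receptor subunit with a Ptbp-controlled exon, was listed at 335, 346 and 538 and at 636, 609 and 640 (0.66, adjusted p = 0.085). These differences point in opposite directions, and in each the groups did not overlap. *Gap43*, a growth cone protein whose mRNA Elavl4 stabilises, was listed at 1637, 1563 and 1953 and at 2325, 2067 and 2303 (log2 fold change 0.38, adjusted p = 0.10). *Camk2a*, a synaptic kinase, was listed at 88, 93 and 124 and at 146, 145 and 175 (0.62, adjusted p = 0.069). In *Gap43* and *Camk2a* too all sgKcna1 libraries exceeded all controls. For comparison, groups did not overlap in 42.7% of genes with a mean of at least 20. *Vamp1* (log2 fold change 0.77, adjusted p = 0.24) and *Bdnf* (-0.17, adjusted p = 0.51) had overlapping groups.

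The cultures held cells other than neurons, and markers of these differed between the groups. In a bulk culture, fewer cells of a type cannot be told apart from less RNA per cell. All 10 neuron markers were above 0, and their summed values ran from 9739 to 10906 in sgLacZ and from 11928 to 13483 in sgKcna1. *Tubb3*, the most abundant of them over the 6 libraries but not within sgLacZ, had a mean of 2073 in sgLacZ and 3889 in sgKcna1. By contrast, 4 of the 10 (*Map2*, *Snap25*, *Syt1* and *Stmn2*) had a log2 fold change below 0. Of the 10 neuron markers 0 passed in limma, with 4 higher and 2 lower at an unadjusted p under 0.05. Over all genes tested 23.2% reached that level, a share that also stands beside the counts below. The 10 astrocyte markers summed to between 961 and 1069 in sgLacZ and between 702 and 718 in sgKcna1, and 3 of them passed, all lower (*Aqp4*, *Aldoc* and *Sox9*). The other 7 did not pass, and 1 of the 10 had a log2 fold change above 0. At an unadjusted p under 0.05, 6 were lower and 0 higher. The 8 progenitor markers summed to between 879 and 1225 and between 502 and 598, of which *Fabp7* and *Hes5* passed, both lower. The 10 markers of dividing cells summed to between 123 and 129 and between 73 and 78, with 0 past the threshold in limma and 7 lower at an unadjusted p under 0.05. The 10 oligodendrocyte lineage markers summed to between 72 and 104 and between 47 and 51, with *Olig2* past the threshold and lower, and with *Mog* and *Mag* at 0 in all libraries. At an unadjusted p under 0.05, 5 of them were lower and 1, *Mbp*, was higher. The 10 microglia markers summed to between 23 and 27 and between 55 and 73, with *C1qa* past the threshold and higher, and with *Tmem119* and *P2ry12* at 0. Of the 8 above 0 in at least 1 library, 7 did not pass, and 2 had a log2 fold change below 0. Sums overlapped for the 8 excitatory markers (1695 to 1852 and 1593 to 1751), the 8 inhibitory markers (272 to 300 and 261 to 311) and the 10 vascular and meningeal markers (13 to 20 and 6 to 15). Single markers within these sums still differed. At an unadjusted p under 0.05, 2 excitatory markers were higher and 1 lower, and 1 inhibitory marker was higher and 3 lower, with 0 past the threshold in limma. The part of these markers in the values of the 10 regulators was not tested.

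**Figure D5:**
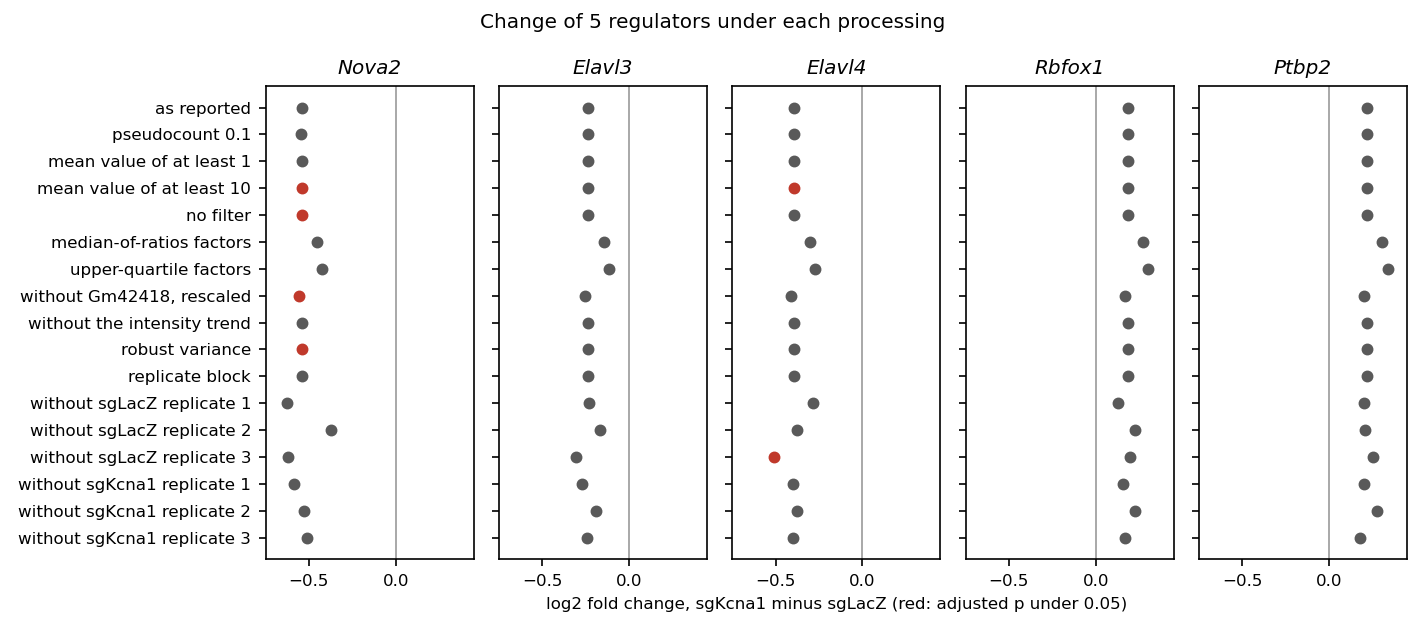
Log2 fold change, sgKcna1 minus sgLacZ (horizontal axis), of the 5 regulators whose groups do not overlap, as reported and under 16 alternatives (rows), with red points for an adjusted p under 0.05. The sign is the same in every row, 6 of which change only the test and not the fold change, and an adjusted p under 0.05 appears in 4 rows for *Nova2* and 2 rows for *Elavl4*.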

How the data were processed

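The series holds 3 sgLacZ and 3 sgKcna1 libraries, prepared with a QuantSeq 3′ kit and, by the paper's methods, sequenced with stranded reads. The files that the authors deposited hold 1 score per gene and library, a whole number read here as a rounded per-million value, since the sums of the libraries lie between 999047 and 999717. The submitters' processing notes name STAR 2.7, featureCounts, DESeq2 and mm10, whereas the paper's methods name Bowtie2 and NCBI37/mm9. The scaling and the strand setting of the counting are not given in the sources used here. Groups and replicate numbers come from the sample labels.

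The test was limma 3.58.1 under R 4.3.3, with eBayes set to follow an intensity trend, on log2(value + 1). It took genes above 0 in at least 1 library, compared the groups without further covariates and was adjusted by Benjamini-Hochberg. On this scale the fold changes of low genes come out too small. The fit was tested on simulated data. Ratios, shares and lists were described without a test. Promoters were read from RefSeq (GRCm38.p6) with Python 3.11.15, and the letters of sg19, read from the paper's supplement, matched chromosome 6 of NCBIM37 next to NGG at 1 position.

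The members, lists and tests were chosen with earlier results of these data known. Named genes were all members, *Kcna1*, Gm42418, the genes past the threshold in each list (up to 4) or else its most abundant gene, all described targets, and the 3 genes closest in pattern to the member with the smallest p. *Plppr3*, *Map2*, *Snap25*, *Syt1*, *Stmn2*, *Raver1*, *Esrp1*, *Esrp2*, *Mbp*, *Mog*, *Mag*, *Tmem119* and *P2ry12* were named after their values were seen. Some genes that this rule names are not reported here. Alternatives were a pseudocount of 0.1, mean values of at least 1 or 10 or no filter, other scalings and variance models, the replicate block and each library left out.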

Additional observations from a re-analysis of the deposited data

How the results depend on the processing

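The log2 fold changes of *Nova2*, *Elavl3*, *Elavl4*, *Rbfox1* and *Ptbp2* kept their sign under the 10 of 16 alternatives that could change them, since the other 6 leave the fold change as it is. The number of members past the threshold, 0 as reported, was 2 with a mean value of at least 10 (*Nova2* and *Elavl4*) and 1 (*Nova2*) without a filter, without Gm42418 and with a robust variance. It ran from 0 to 1 with a library left out, the 1 being *Elavl4* without sgLacZ replicate 3. In these settings 28.4%, 4.76%, 9.27%, 14.8% and 14.2% of all genes tested passed. Without a filter most residual variances were 0, which limma reported as making its variance estimate unreliable. The adjusted p of *Nova2* ran from 0.0029 (robust variance) to 0.28 over the alternatives. The number of all genes past the threshold, 226 as reported, was 627 with a pseudocount of 0.1, 1543 and 2289 with mean values of at least 1 and 10, 2405 without a filter, 1721 with median-of-ratios factors, 2058 with upper-quartile factors (1226 higher, 832 lower), 1808 without Gm42418, 2884 with a robust variance and 0 with the replicate block, and ran from 0 to 2711 with a library left out. Without the trend 117 were higher and 84 lower. In the same order, the other RNA-binding protein genes past the threshold, 5 as reported, numbered 25, 38, 33, 22, 24, 27, 38 and 0 from the mean value of at least 1 on, 0 without the trend, and from 0 to 35 with a library left out. The cause of these shifts was not tested. Upper-quartile factors moved the median log2 fold change of genes with a mean of at least 20 from -0.03 to 0.09.

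With a library left out, *Nova1* ran from -0.11 to 0.14 and *Rbfox2* from -0.034 to 0.086 on the log2 scale, and the difference in the log2 ratio of *Ptbp2* to *Ptbp1* from -0.050 to 0.19, so that their signs turned. Deviations of same-numbered libraries from their group means correlated at 0.02, 0.15 and 0.20 across genes, and nothing in the labels says that the numbers pair cultures. With the replicate number as a block 0 members and 0 genes passed (limma). The depth is unknown, so its limit on precision could not be set.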

Other observations

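Among the 6045 other genes whose mean was 20 or more, the 3 whose log2 values followed *Nova2* most closely over the 6 libraries were *Osbpl2* (Pearson's r = 0.996), *Champ1* (0.991) and *Gtf2e2* (0.990). *Osbpl2*, an oxysterol-binding protein gene, was listed at 37, 40 and 37 in sgLacZ and at 35, 34 and 34 in sgKcna1. *Champ1*, which encodes a zinc finger protein of chromosome alignment, was listed at 58, 72 and 56 and at 47, 44 and 42. *Gtf2e2*, a subunit of the general transcription factor TFIIE, was listed at 66, 78 and 68 and at 61, 61 and 60. All 3 shared with *Nova2* the high value in sgLacZ replicate 2 and groups that did not overlap. The correlations were picked as the highest of many and rest on 6 libraries that fall into 2 groups.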
